A study of Mus musculus with 24 samples.

Results

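*Hspb1* and 9 other heat shock protein genes were followed after a sciatic nerve lesion in dorsal root ganglia (DRGs) of wildtype (WT) and *Nfil3* KO mice. The 10 genes were *Hspb1*, *Hspb8*, *Cryab*, *Hspa1a*, *Hspa1b*, *Hspa2*, *Hspa8*, *Hsp90aa1*, *Hsph1* and *Dnajb1*. They were taken by gene name from the array, which gave 16 of its 41174 probes and 10 of its 27398 gene names. *Hspb1* was the member with the clearest response. Its mRNA was 2.35-fold higher than in control DRGs at day 2 and 1.88-fold higher at day 5, in KO and in WT mice. The other members moved by less and in both directions.

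Heat shock proteins are chaperones that keep other proteins folded, soluble or ready for degradation. The small heat shock proteins HSPB1, HSPB8 and CRYAB bind unfolding proteins without using ATP and hand them on. The HSP70 proteins (here HSPA1A, HSPA1B, HSPA2 and HSPA8) refold clients in cycles of ATP hydrolysis, which the J protein DNAJB1 starts and the HSP110 protein HSPH1 resets by nucleotide exchange. HSP90AA1 acts on clients that are already partly folded, such as kinases and steroid receptors. Some of these genes are nearly silent until stress activates the transcription factor HSF1, while *Hspa8* is made in all cells at all times. In sensory neurons HSPB1 is known as a protein that accumulates after axotomy and that acts on the cytoskeleton and on survival, and mutations of human *HSPB1* and *HSPB8* cause inherited neuropathies.

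All mice were adult males of the C57BL/6J strain. The KO mice were *Nfil3* null animals from a line with a loxP-flanked *Nfil3* region, recombined by Cre under a human CMV promoter, so that the gene is missing in all cells and not in neurons alone. The WT mice were their littermates. The left sciatic nerve was cut and its ends were sutured together again, and an analgesic (Temgesic) was given daily for the first 3 days. The L4 and L5 DRGs of the lesioned side were taken at day 2 or day 5 and those of the non-injured side served as control, coded as day 0, so that control samples came from mice that also carried a lesion and got the analgesic. The labels do not tie control samples to animals or to a day. Each of the 6 groups had 4 samples, which the methods of the study call independent replicates. The labels name DRG neurons as the tissue, but all 6 Schwann cell markers used were well above background in all 24 samples, so the values belong to whole ganglia. In such bulk RNA fewer cells of a type and less RNA per cell cannot be told apart.

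The samples were run as pairs on 12 Agilent 4x44K arrays of the mouse genome, 1 labelled with Cy3 and 1 with Cy5, so that each group had 2 samples per dye. Values are log2 intensities after background correction and quantile normalization, and 1 unit is a doubling. No member spot was saturated or marked as an outlier, and 54.6% to 72.4% of all probes were well above background in a sample. As check of the labels, *Nfil3* had a mean log2 intensity of 8.65, 10.52 and 10.91 in WT control, day 2 and day 5 samples, and of 4.67, 4.67 and 4.42 in KO samples. The sample labelled KO control replicate 4 had 7.59 for *Nfil3*, while the remaining KO controls had 2.94 to 4.37, and 1 of its label fields gives day 5 although its title gives control. Its log2 intensity of the injury gene *Atf3* was 9.66, against 13.40 to 13.90 in KO day 5 samples, and it was kept as a control. *Atf3* bears on the day of this sample and not on its genotype, and WT controls had 8.44 to 9.01 for *Nfil3*. Without this sample the lesion difference of *Hspb1* was 1.24 at day 2 and 0.91 at day 5 on the log2 scale, and among the 10 genes the calls lost were those of *Hspa2* at day 2, in the mean of the genotypes and in KO mice. No member then passed between KO and WT or for the interaction. *Hspb8* in KO minus WT controls went from 0.14 to 0.20, and the interaction of *Hspa1b* at day 5 from -0.32 to -0.38.

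A further property of the controls touches every lesion difference. On 4 arrays a control sample was hybridized together with a lesioned sample, and in these controls *Atf3* lay at 9.04 to 9.98 and *Sprr1a*, another gene induced by axotomy, at 8.15 to 11.68. In the 4 controls that shared an array with another control, *Atf3* lay at 7.25 to 7.69 and *Sprr1a* at 5.48 to 6.12. *Hspb1* had 14.23 to 14.38 in the former and 14.21 to 14.56 in the latter. It is bright in controls and rises far less than *Atf3* and *Sprr1a*. The change that signal added from a lesioned sample would make in *Hspb1* was not computed, and ranges of 4 samples could miss a small one. Whether signal passes between the channels of an array was not tested.

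Each probe is a 60-base oligonucleotide, and the probe with the highest mean intensity stood for its gene. The probes of *Hspb1* and *Cryab* and both probes of *Hspa1b* and of *Hspa8* are shown in lower case, 5′ to 3′ on the strand of the mRNA, since the results turn on what these oligonucleotides can and cannot tell apart.
Hspb1 (A_52_P404533): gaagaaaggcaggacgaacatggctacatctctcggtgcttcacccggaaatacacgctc
Cryab (A_52_P106482): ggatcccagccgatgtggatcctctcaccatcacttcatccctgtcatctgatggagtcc
Hspa1b (A_52_P52803): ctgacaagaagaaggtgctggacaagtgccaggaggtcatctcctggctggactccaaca
Hspa1b (A_52_P304902): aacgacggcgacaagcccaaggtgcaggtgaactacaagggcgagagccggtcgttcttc
Hspa8 (A_51_P170371): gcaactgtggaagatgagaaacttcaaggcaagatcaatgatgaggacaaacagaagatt
Hspa8 (A_52_P12877): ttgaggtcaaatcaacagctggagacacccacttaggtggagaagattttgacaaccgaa
In the array annotation, which uses mm9, the *Hspb1* probe lies at chr5:136364927-136365114 on the plus strand. This span has 188 bases for a probe of 60, so the probe crosses an intron and reads spliced mRNA. The *Cryab* probe lies at chr9:50564440-50564499. The *Hspa1b* probes lie at chr17:35094200-35094259 and chr17:35095608-35095667 on the minus strand. Both are annotated to transcripts of *Hspa1a* as well as *Hspa1b*, a pair of adjacent, nearly identical genes without introns, so the values called *Hspa1b* cannot be assigned to 1 of them. The 2 probes of *Hspa1a* share 30 bases and are not independent measurements. The *Hspa8* probes lie at chr9:40612674-40612733 and chr9:40611142-40611201 on the plus strand, at different places of 1 transcript.

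The promoters bear on the members because heat shock genes are classically switched on by HSF1 at heat shock elements, inverted repeats of the unit GAA. The 250 bases upstream of the RefSeq start are given for 4 members in GRCm38.p6, with the letters GAANNTTC or TTCNNGAA in capitals.
Hspb1: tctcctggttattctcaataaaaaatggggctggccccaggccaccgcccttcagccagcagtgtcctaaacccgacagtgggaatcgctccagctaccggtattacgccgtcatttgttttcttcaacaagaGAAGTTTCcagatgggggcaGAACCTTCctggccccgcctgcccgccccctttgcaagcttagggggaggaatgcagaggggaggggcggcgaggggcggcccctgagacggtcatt
Hspa1a: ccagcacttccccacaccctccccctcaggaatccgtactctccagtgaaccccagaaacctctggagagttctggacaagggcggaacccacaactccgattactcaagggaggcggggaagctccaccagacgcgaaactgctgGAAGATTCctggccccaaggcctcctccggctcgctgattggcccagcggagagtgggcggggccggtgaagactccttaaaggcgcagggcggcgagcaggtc
Hspa1b: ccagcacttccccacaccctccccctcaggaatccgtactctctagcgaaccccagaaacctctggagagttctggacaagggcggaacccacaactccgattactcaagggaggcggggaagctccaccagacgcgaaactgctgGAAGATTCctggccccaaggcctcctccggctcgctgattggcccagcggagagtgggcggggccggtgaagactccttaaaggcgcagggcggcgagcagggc
Hsph1: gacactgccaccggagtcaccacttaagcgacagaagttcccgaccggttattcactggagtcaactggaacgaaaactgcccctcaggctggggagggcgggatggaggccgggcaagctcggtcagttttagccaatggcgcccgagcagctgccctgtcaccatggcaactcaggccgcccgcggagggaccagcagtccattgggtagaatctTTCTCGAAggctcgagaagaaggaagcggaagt
These windows are chr5:135887669-135887918 on the plus strand for *Hspb1* and, on the minus strand, chr17:34972157-34972406 for *Hspa1a*, chr17:34959239-34959488 for *Hspa1b* and chr5:149636337-149636586 for *Hsph1*. *Hspb1* holds GAANNTTC at 117 and at 97 bases before its start. *Hspa1a* and *Hspa1b* hold it at 104 bases before theirs, in windows that are identical at 247 of 250 bases. *Hsph1* holds TTCNNGAA at 33 bases before the start, and TTCTGGAAAGTTC, which joins 3 units, lies 36 bases after it.

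Promoters were listed for 7 of the 10 genes, and *Cryab*, *Hspa8* and *Hsp90aa1* were not among them. In the window of 300 bases, of which 50 lie after the start, GAANNTTC on either strand was held by 5 of the 7 genes (*Hspb1*, *Hspb8*, *Hspa1a*, *Hspa1b* and *Hsph1*) and by 7.86% of 32851 listed promoters. TTCNNGAA was held by 1 of the 7, *Hsph1*, and by 8.52% of all promoters. The form with 3 units (GAANNTTCNNGAA or TTCNNGAANNTTC, which contain the shorter forms) was held by *Hsph1* and by 0.603% of all promoters. The AP-1 letters TGANTCA were held by none of the 7 and by 7.81% of all, and the NFIL3 letters TTATGTAA or TTACGTAA by none and by 1.06%. The general promoter letters CCAAT were held by 5 of the 7 and by 37.4% of all, and TATAAA by none and by 13.6%. These matches are letters in a window and say nothing on which factor was bound. Of the genes with GAANNTTC, *Hspb1* was higher at both time points and *Hspb8* at day 2, while *Hspa1a*, *Hspa1b* and *Hsph1* were lower at day 5. *Hspa1a* and *Hspa1b*, nearly identical upstream, are not separate cases.

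*Hspb1* encodes the small heat shock protein also known as HSP25 in the mouse. Its log2 intensities were 14.35, 14.31, 14.23 and 14.26 in WT control, 15.63, 15.65, 15.34 and 15.57 in WT day 2 and 15.25, 15.18, 15.36 and 15.14 in WT day 5 samples (replicates 1 to 4). In KO mice they were 14.23, 14.21, 14.56 and 14.38 in control, 15.68, 15.59, 15.26 and 15.70 at day 2 and 15.10, 15.14, 15.37 and 15.26 at day 5. All 16 lesioned samples lay above all 8 controls. Averaged over the genotypes the lesion difference was 1.24 (standard error 0.0747, 95% confidence interval 1.08 to 1.39) at day 2 and 0.91 (0.75 to 1.06) at day 5, with limma adjusted p of 2.16e-10 and 1.62e-08. As folds these are 2.35 (2.11 to 2.62) and 1.88 (1.68 to 2.09). Among the genes that were higher after the lesion *Hspb1* ranked 340 of 2596 by size at day 2 and 778 of 2785 at day 5. By p it ranked 82 and 266 among all 27398 genes tested.

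Between the time points *Hspb1* declined in part. The mean at day 5 was 0.33 lower than at day 2 on the log2 scale (1.25-fold, adjusted p = 0.0170), with overlap, since WT and KO day 2 replicate 3 had 15.34 and 15.26 and lay within the range of day 5. Without both samples of array 8 (KO day 2 replicate 2 and KO day 5 replicate 4), chosen after the data were seen, the decline was again 0.33 but did not pass (adjusted p = 0.0532). The lesion difference from control held within each slide, the 3 glass slides that carried 4 arrays each and were scanned one by one, with 0.88 to 1.43 at day 2 and 0.85 to 0.93 at day 5. Slide 1, which gave the 0.88, held only 1 day 2 sample, and this limits the day 2 values within slides of every gene. In the Cy3 channel the lesion difference of *Hspb1* was 1.36 and 0.89, and in the Cy5 channel 1.11 and 0.92.

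**Figure D1:**
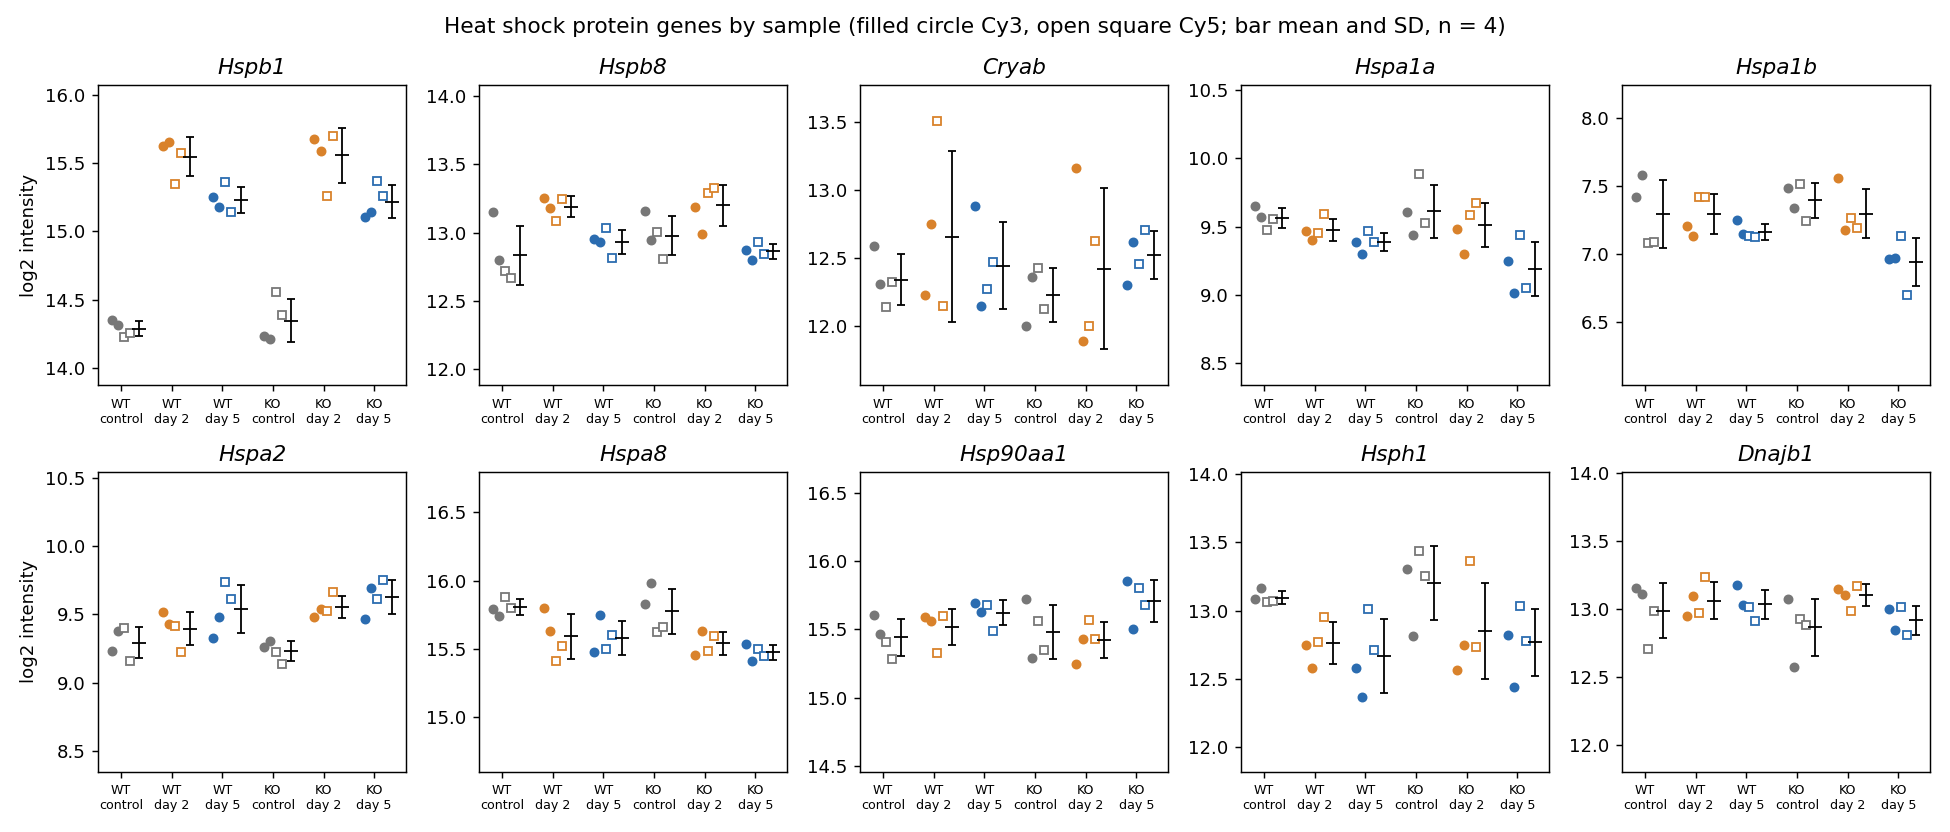
Log2 intensity of the 10 heat shock protein genes in all 24 samples, 1 panel per gene over the 6 groups, with Cy3 samples as filled circles, Cy5 samples as open squares and the group mean ± SD beside them (n = 4). The vertical axes differ in position and do not start at 0. *Hspb1* samples after the lesion lie at 15.10 to 15.70, above the controls at 14.21 to 14.56, while *Cryab* has single high samples at day 2.

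The other small heat shock proteins behaved differently. *Hspb8*, a partner of BAG3 in the removal of misfolded proteins, had log2 intensities of 13.15, 12.80, 12.72 and 12.67 in WT control, 13.25, 13.18, 13.09 and 13.24 in WT day 2 and 12.95, 12.93, 13.03 and 12.82 in WT day 5 samples. In KO mice it had 13.16, 12.94, 13.00 and 12.81 in control, 13.19, 12.99, 13.29 and 13.33 at day 2 and 12.87, 12.80, 12.93 and 12.85 at day 5. Of the 8 day 2 samples 6 lay above all controls, and at day 5 none did. *Hspb8* rose at day 2 by 0.29 (standard error 0.0731, 1.22-fold, adjusted p = 0.00675) and differed from control at day 5 by -0.01 (95% confidence interval -0.16 to 0.14, adjusted p = 0.966). Its change from day 2 to day 5 was -0.30 (adjusted p = 0.0286). This call was lost when any 1 of 9 samples was left out (adjusted p of 0.05 to 0.0628), which were WT day 2 replicates 1 and 4, WT day 5 replicates 1, 2 and 4, KO day 2 replicates 3 and 4 and KO day 5 replicates 2 and 4. The rise at day 2 was 0.14 in Cy3 and 0.44 in Cy5 samples and 0.19 to 0.48 within slides. Without the 4 controls that shared an array with a lesioned sample it was 0.24 and did not pass (adjusted p = 0.0777).

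*Cryab* encodes αB-crystallin, a small heat shock protein of lens, muscle and glia. Its log2 intensities were 12.59, 12.31, 12.14 and 12.32 in WT control, 12.23, 12.75, 13.51 and 12.15 in WT day 2 and 12.88, 12.15, 12.27 and 12.47 in WT day 5 samples. In KO mice they were 12.00, 12.36, 12.43 and 12.13 in control, 13.16, 11.89, 12.00 and 12.62 at day 2 and 12.30, 12.61, 12.46 and 12.71 at day 5. WT day 2 replicate 3 and KO day 2 replicate 1 stood above all other samples, whereas the lowest value of all was also a day 2 sample. *Cryab* had the widest scatter of the 10 genes, with a lesion difference of 0.25 (standard error 0.193, adjusted p = 0.410) at day 2 and 0.20 (adjusted p = 0.566) at day 5. The second *Cryab* probe gave 10.42 and 10.25 for the same pair of samples and correlated with the first at r = 0.94 over the 24 samples, so the scatter is not that of a single probe.

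The pair of high samples shared an array (array 5, on slide 2). Without both of its samples, an alternative chosen after the data were seen, the day 2 difference of *Cryab* was -0.01 (adjusted p = 0.973). They were also rich in Schwann cell markers (*Mbp*, *Pmp22*, *Prx*, *Mag*, *Mal* and *Egr2*). The log2 of the summed marker intensity was 17.59 in WT day 2 replicate 3, the highest of all samples, and 16.91 in KO day 2 replicate 1, with 17.16 in WT day 2 replicate 2 and 16.93 in KO day 2 replicate 4 between them. It ranged from 15.93 to 16.61 in control, 16.08 to 17.59 in day 2 and 15.98 to 16.61 in day 5 samples, and 2 of the 6 markers, *Pmp22* and *Mal*, passed as higher at day 2. As deviations from the group means *Cryab* and this sum correlated at r = 0.88 over the 24 samples, which share arrays in pairs. The correlation was 0.76 with fibroblast, 0.68 with endothelial, 0.52 with macrophage and 0.29 with skeletal muscle markers. It was 0.66 with immediate early genes and 0.61 with clock genes. For *Hspb1* and the Schwann cell sum it was 0.0023. The part of Schwann cells in the *Cryab* values was not tested.

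**Figure D2:**
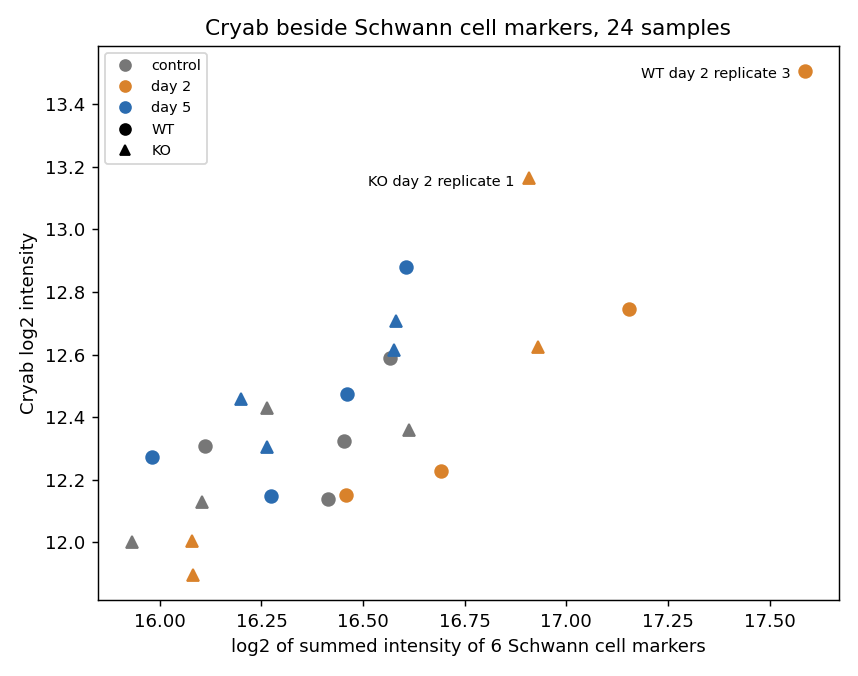
*Cryab* log2 intensity against the log2 of the summed intensity of 6 Schwann cell markers in the 24 samples, with color for the time point and shape for the genotype. WT day 2 replicate 3 (17.59 and 13.51) and KO day 2 replicate 1 (16.91 and 13.16), which share an array, are the highest in *Cryab*.

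*Hspa1a* and *Hspa1b* encode the stress-inducible HSP70. *Hspa1a* had log2 intensities of 9.65, 9.57, 9.48 and 9.56 in WT control, 9.47, 9.40, 9.45 and 9.59 in WT day 2 and 9.39, 9.30, 9.47 and 9.39 in WT day 5 samples. In KO mice it had 9.61, 9.44, 9.89 and 9.52 in control, 9.49, 9.30, 9.59 and 9.68 at day 2 and 9.25, 9.01, 9.44 and 9.05 at day 5. At day 5, 6 of 8 samples lay below all controls. Neither gene of this classical stress pair passed as higher at either time point. *Hspa1a* differed by -0.09 at day 2 (adjusted p = 0.452) and fell by 0.30 at day 5 (1.23-fold, adjusted p = 0.00621), and its second, overlapping probe fell by 0.26 (adjusted p = 0.0161).

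The brighter *Hspa1b* probe had 7.42, 7.58, 7.08 and 7.09 in WT control, 7.21, 7.13, 7.42 and 7.41 in WT day 2 and 7.25, 7.14, 7.13 and 7.12 in WT day 5 samples. In KO mice it had 7.49, 7.34, 7.52 and 7.24 in control, 7.56, 7.18, 7.26 and 7.19 at day 2 and 6.96, 6.97, 7.13 and 6.70 at day 5. All KO day 5 samples lay below all KO controls, whereas the WT groups overlapped. The difference was -0.05 at day 2 (adjusted p = 0.769) and -0.29 at day 5 (standard error 0.0872, adjusted p = 0.0185). The other *Hspa1b* probe was dim, with 3.03 to 4.89 and 11 of 24 samples well above background, and its -0.32 at day 5 did not pass (adjusted p = 0.251). Within slides the day 5 difference was -0.52 to -0.14 for *Hspa1a* and -0.57 to -0.04 for *Hspa1b*. With the processed signals of the scanner software in place of the normalization used here *Hspa1b* did not pass at day 5 (adjusted p = 0.056), nor did it without the 4 controls beside lesioned samples (0.0731).

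*Hspa2*, an HSP70 that is best known from the testis, rose modestly. Its log2 intensities were 9.24, 9.38, 9.40 and 9.16 in WT control, 9.52, 9.43, 9.41 and 9.23 in WT day 2 and 9.33, 9.48, 9.74 and 9.62 in WT day 5 samples. In KO mice they were 9.26, 9.30, 9.22 and 9.14 in control, 9.48, 9.54, 9.53 and 9.67 at day 2 and 9.46, 9.69, 9.61 and 9.75 at day 5. At each time point 7 of 8 lesioned samples lay above all controls, and the exceptions were WT samples. The difference was 0.21 at day 2 (1.16-fold, adjusted p = 0.0285) and 0.32 at day 5 (1.25-fold, adjusted p = 0.00121), and it was positive within each slide (0.15 to 0.29 and 0.26 to 0.46). The day 2 call lay near the threshold. It did not pass when any 1 of 6 samples was left out, with differences of 0.19 to 0.21 (adjusted p of 0.0515 to 0.0611). These samples were WT control replicates 1 and 4, WT day 2 replicates 1 and 2, KO control replicate 4 and KO day 2 replicate 4. The call was also lost with the array as a random block (0.20, adjusted p = 0.0550), which allows for the likeness of samples on 1 array. Without the 4 controls beside lesioned samples it was lost too (0.18, adjusted p = 0.195). The second probe of *Hspa2* gave 0.37 (adjusted p = 0.102) and 0.43 (0.0525), with its highest values, 8.22 and 8.48, in KO day 2 replicate 2 and KO day 5 replicate 4, which share array 8.

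*Hspa8*, the constitutive HSP70 of all cells, moved the other way on its brighter probe. Its log2 intensities were 15.79, 15.74, 15.88 and 15.80 in WT control, 15.80, 15.63, 15.41 and 15.52 in WT day 2 and 15.48, 15.75, 15.50 and 15.60 in WT day 5 samples. In KO mice they were 15.83, 15.98, 15.63 and 15.66 in control, 15.46, 15.63, 15.49 and 15.59 at day 2 and 15.53, 15.41, 15.50 and 15.45 at day 5. Below all controls lay 5 of 8 samples at day 2 and 7 of 8 at day 5. The difference was -0.22 at day 2 (adjusted p = 0.0200) and -0.26 at day 5 (1.20-fold lower, adjusted p = 0.00627). The second probe did not bear this out, with -0.20 (adjusted p = 0.297) and -0.07 (adjusted p = 0.795), and the 2 probes correlated at only r = 0.13 over the 24 samples. When the probes were averaged the day 5 difference was -0.16 (adjusted p = 0.137). With the processed signals it was -0.07 at day 2 (adjusted p = 0.419) and -0.12 at day 5 (0.142), while loess with Aquantile normalization gave -0.20 and -0.25, which both passed. The day 2 fall also did not pass without the 4 controls beside lesioned samples (-0.25, adjusted p = 0.0702) or without array 5 (-0.18, 0.0849).

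*Hsph1*, the nucleotide exchange factor of the HSP110 type, had log2 intensities of 13.09, 13.16, 13.06 and 13.07 in WT control, 12.75, 12.58, 12.77 and 12.95 in WT day 2 and 12.58, 12.37, 13.01 and 12.71 in WT day 5 samples. In KO mice it had 13.30, 12.82, 13.44 and 13.26 in control, 12.56, 12.75, 13.37 and 12.74 at day 2 and 12.82, 12.44, 13.04 and 12.78 at day 5. The WT control samples lay above all WT lesioned samples, while in KO mice the groups overlapped through control replicate 2 and day 2 replicate 3. *Hsph1* fell at day 5 by 0.43 (standard error 0.122, 1.35-fold, adjusted p = 0.0130), the largest fall among the members in the mean of the genotypes. At day 2 the difference was -0.34 and missed the threshold (adjusted p = 0.0524). It passed there under 7 other settings of the analysis (adjusted p of 0.0145 to 0.0458), and the day 5 fall did not pass without the 4 controls beside lesioned samples (-0.38, adjusted p = 0.148). Within slides the difference was -0.45 to 0.09 at day 2, where the slide with the positive value held 1 day 2 sample, and -0.60 to -0.41 at day 5.

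The remaining chaperones did not pass in either direction. *Hsp90aa1*, the inducible cytosolic HSP90, had log2 intensities of 15.61, 15.47, 15.41 and 15.28 in WT control, 15.59, 15.56, 15.33 and 15.60 in WT day 2 and 15.69, 15.63, 15.68 and 15.49 in WT day 5 samples, and in KO mice of 15.72, 15.29, 15.56 and 15.35 in control, 15.25, 15.43, 15.57 and 15.43 at day 2 and 15.85, 15.50, 15.80 and 15.68 at day 5. The day 5 samples were mostly in the upper part of the control range and 2 of 8 lay above it. The difference was 0.01 at day 2 (adjusted p = 0.960) and 0.20 at day 5 (95% confidence interval 0.04 to 0.36, adjusted p = 0.0688), and the latter passed under 6 other settings (adjusted p of 0.000638 to 0.0491). *Dnajb1*, the J protein that works with inducible HSP70, ranged from 12.58 to 13.15 in controls, 12.95 to 13.24 at day 2 and 12.81 to 13.18 at day 5. Its differences of 0.16 (adjusted p = 0.188) and 0.05 (adjusted p = 0.760) did not pass, and its SD within groups was 0.148.

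Taking the 10 genes as a list, 4 passed at day 2 (3 higher, 1 lower), where 22.1% of all genes did (9.48% higher, 12.7% lower). Without the 4 controls beside lesioned samples *Hspb1* alone passed at day 2. That setting leaves 4 controls, and the share of all genes that passed under it was not counted. Its day 2 differences were 0.24 for *Hspb8*, 0.18 for *Hspa2* and -0.25 for *Hspa8*, beside 0.29, 0.21 and -0.22 with all controls. At day 5, with all controls, 6 passed (2 higher, 4 lower), where 23.2% of all genes did (10.2% higher, 13% lower). The 4 lower were *Hspa1a*, *Hspa1b*, *Hspa8* and *Hsph1*. Of these the *Hspa1b* probe is also annotated to *Hspa1a*, and the second *Hspa8* probe did not bear out its fall. The median difference of the members was 0.08 at day 2 and 0.02 at day 5, beside -0.02 and -0.03 over all genes. The differences of the list ran from -0.34 to 1.24 at day 2 and from -0.43 to 0.91 at day 5, with *Hspb1* at the upper end of both. From day 2 to day 5 *Hspb1* and *Hspb8* were lower, which makes 2 members in a comparison where 3.28% of all genes passed and 1.04% were lower. Both lesion comparisons use the same 8 control samples. For the 6 genes with a second probe its difference had the same sign as that of the first in 6 cases at each time point, in the mean of the genotypes. Within the genotypes this held for 5 of the 6 in WT at day 2, 4 in WT at day 5, 6 in KO at day 2 and 5 in KO at day 5.

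**Figure D3:**
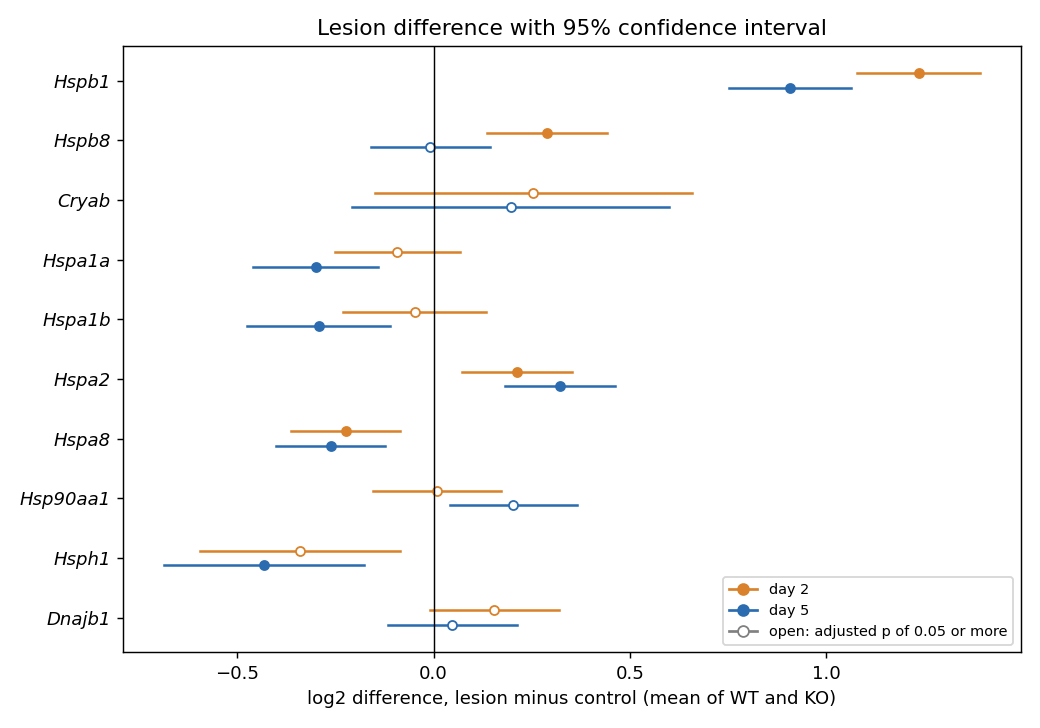
Lesion minus control on the log2 scale for the 10 genes at day 2 and day 5, averaged over WT and KO, with 95% confidence intervals from the limma fit and open symbols where the adjusted p was 0.05 or more. *Hspb1* lies at 1.24 and 0.91, whereas the other members lie between -0.43 and 0.32.

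Within each genotype *Hspb1* rose at both time points. The WT difference was 1.26 at day 2 (2.40-fold, adjusted p = 7.67e-08) and 0.94 at day 5 (1.92-fold, 2.86e-06). The KO difference was 1.21 at day 2 (2.31-fold, 1.50e-07) and 0.87 at day 5 (1.83-fold, 8.88e-06). Of the 10 genes 2 passed in WT at day 2 (*Hspb1* and *Hspb8*, where 11% of all genes did) and 1 in WT at day 5 (*Hspb1*, 13.9%). In KO mice 2 passed at day 2 (*Hspb1* and *Hspa2*, 11.8%) and 5 at day 5 (*Hspb1* and *Hspa2* higher, *Hspa1a*, *Hspa1b* and *Hspa8* lower, 12.7%). Without the 4 controls beside lesioned samples only *Hspb1* passed in each of these comparisons at day 2 and in KO at day 5. With these fewer controls *Hspb8* had 0.26 in WT at day 2 and *Hspa2* 0.29 in KO at day 2. In KO at day 5 *Hspa1a*, *Hspa1b*, *Hspa2* and *Hspa8* had -0.47, -0.49, 0.37 and -0.33. Shares of all genes were counted only with all samples in the fit. The 5 in KO at day 5 became 2 without KO day 5 replicate 4 and 3 without KO control replicate 1 or 3 or KO day 5 replicate 2. The 2 in KO at day 2 became 1 when any of KO control replicates 1, 3 and 4 or KO day 2 replicates 1, 2 and 4 was left out, and the 2 in WT at day 2 became 1 for any of WT control replicates 2, 3 and 4 or WT day 2 replicates 1, 2 and 4. In WT at day 5 a second member, *Hspa2*, passed without WT day 5 replicate 1. The larger number in KO mice at day 5 is no difference between the genotypes in itself. *Hspa1a* fell by 0.42 in KO (adjusted p = 0.0124) and had -0.18 in WT (adjusted p = 0.376), and *Hspa1b* fell by 0.45 in KO (0.0189) and had -0.13 in WT (0.628). *Hspa2* differed by 0.40 in KO (0.00820) and 0.25 in WT (0.103), and *Hspa8* by -0.30 (0.0417) and -0.22 (0.150). The second probes of *Hspa1b* and *Hspa8* did not fall in WT, with means of 4.51 and 12.86 at day 5 beside 4.49 and 12.83 in control.

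When KO and WT samples were compared directly, no member passed in control, day 2 or day 5 samples, where 0%, 0.0146% and 0.0109% of all genes did. Since no gene passed in control samples, *Nfil3* itself was missed there, with means of 8.65 in WT and 4.67 in KO. The absence of calls therefore says little, and the intervals below show which differences remain possible. At an unadjusted p under 0.05 there were also 0 members, beside 1.7%, 3.81% and 2.38% of all genes. These shares are smaller than the 0.05 that chance alone would give. *Hspb1* in KO minus WT was 0.06 (95% confidence interval -0.16 to 0.28) in control, 0.01 (-0.21 to 0.23) at day 2 and -0.01 (-0.23 to 0.21) at day 5, so differences in *Hspb1* beyond about 0.28 on the log2 scale lie outside all 3 intervals. The widest intervals were those of *Cryab*, with -0.24 (-0.81 to 0.34) at day 2. The lowest and the highest differences were -0.12 (*Dnajb1*) and 0.14 (*Hspb8*) in control, -0.24 (*Cryab*) and 0.16 (*Hspa2*) at day 2 and -0.22 (*Hspa1b*) and 0.10 (*Hsph1*) at day 5.

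The interaction, which is the lesion difference in KO minus that in WT, passed for no member and for 0% of all genes at day 2 and at day 5, and for 0% of all genes in the F test over both. It thus missed *Nfil3* too, which had 8.65 in control and 10.91 at day 5 in WT mice, and 4.67 and 4.42 in KO mice. The interaction of *Hspb1* was -0.05 (95% confidence interval -0.36 to 0.26) at day 2 and -0.07 (-0.38 to 0.24) at day 5. The member farthest from 0 was *Hspa1b* at day 5 with -0.32 (-0.69 to 0.04), followed by *Hspa1a* with -0.25 (-0.57 to 0.07). The intervals of all 10 genes held 0 at both time points. The width of these intervals is set by 4 samples per group, and for *Cryab* the interval ran from -0.93 to 0.68 at day 2.

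**Figure D4:**
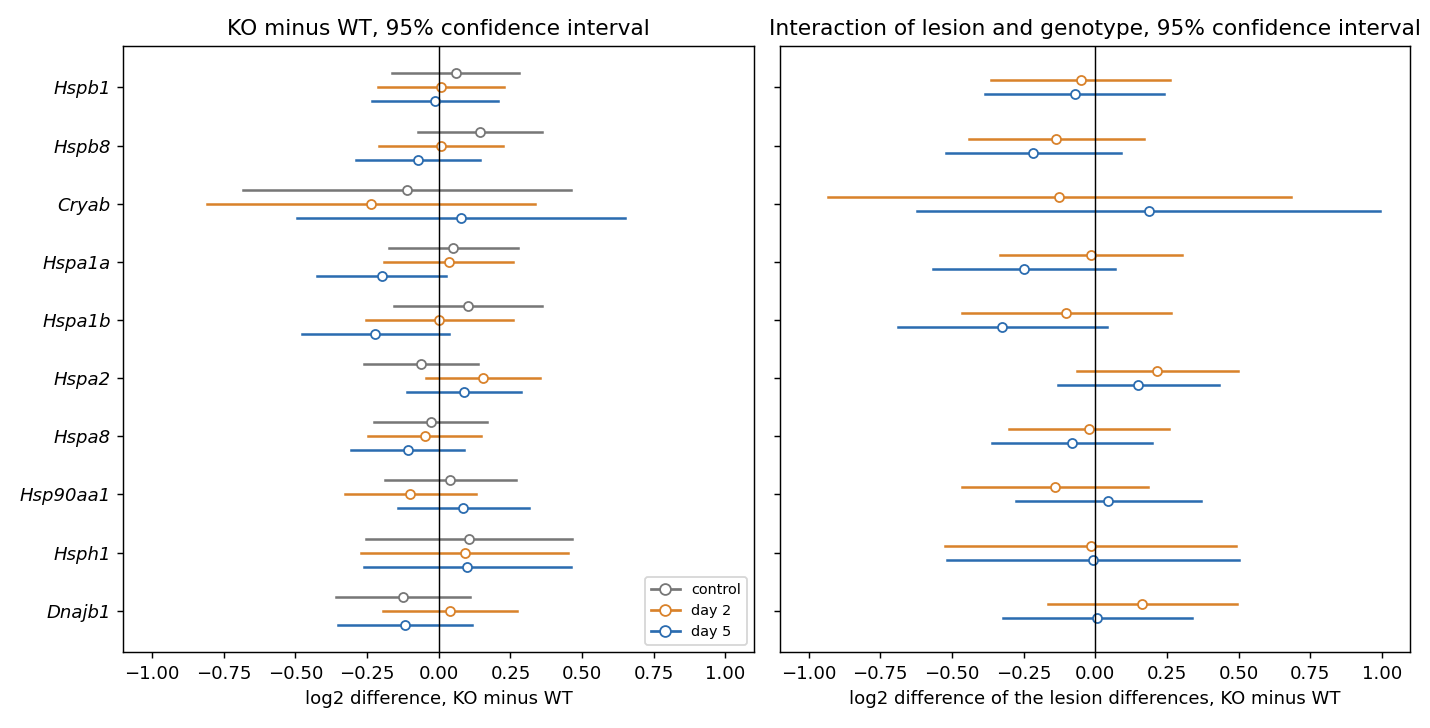
KO minus WT (left) and the interaction of lesion and genotype (right) on the log2 scale for the 10 genes, with 95% confidence intervals from the limma fit by time point. Every interval crosses 0, and those of *Cryab* are the widest.

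Within the groups the members varied together only in part. Over the 24 samples, as deviations from group means, 30 of the 45 pairs of members correlated above 0 and 7 above 0.5, with a median r of 0.11. The highest were *Hspb8* with *Hsp90aa1* (0.70), *Hspa1a* with *Hsph1* (0.64) and *Hsp90aa1* with *Hsph1* (0.56) and *Dnajb1* (0.55), and the lowest was *Hspa2* with *Dnajb1* (-0.50). *Hspb1* correlated with the other 9 between -0.10 and 0.39. These are descriptions, since samples of 1 array share their hybridization. Between the 2 channels of an array the deviations of a gene correlated at a median of r = 0.62 over 12 arrays, from -0.17 (*Hspa2*) to 0.78 (*Hspa1a*), with 0.18 for *Hspb1*. It was above 0 for 15 of the 16 member probes.

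The wider chaperone network was measured by 65 other genes, all on the array. At day 2, 7 were higher and 14 lower, where 9.48% of all genes were higher and 12.7% lower. At day 5, 4 were higher and 18 lower, where 10.2% and 13% of all genes were. Their median difference was -0.05 and -0.10, beside -0.02 and -0.03 over all genes. By role, 2 of 3 further HSP90 genes were lower at day 2 and 3 of 3 at day 5, 1 and 2 of 2 mitochondrial HSP60 and HSP10 genes were lower, 1 of 10 HSP70 and HSP110 genes was higher and 1 lower at each time point, and of 17 J protein genes 2 were higher and 4 lower at day 2 and 1 higher and 4 lower at day 5. Of 21 co-chaperone genes 3 were higher and 4 lower at day 2, and 2 higher and 5 lower at day 5. Of 7 other small heat shock protein genes 1 was higher and 1 lower at day 2, and 1 was lower at day 5.

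The largest rises in the network were those of *Hspb2*, a small heat shock protein gene next to *Cryab* (0.62 at day 2, adjusted p = 0.0442, and 0.26 at day 5, 0.475), *Dnajb5* (0.52, 0.000691, and 0.31, 0.0255), *Ahsa2* (0.51, 5.88e-05, and 0.43, 0.000278) and *Dnajc7* (0.39 at day 2, 0.0313). The deepest falls were those of *Bag2*, a co-chaperone of HSP70 (-0.59 at day 2 and -0.79 at day 5, adjusted p = 0.000183), and of *Hspb3* (-0.71 at day 5, 0.00464), which was well above background in 15 of 24 samples. *Dnajc6*, the neuronal auxilin that uncoats clathrin vesicles, fell by 0.63 at both time points (0.000260 and 0.000207), and *Fkbp4*, an HSP90 co-chaperone, fell by 0.62 at day 5 (0.000466). Chosen after their values were seen, the 5 genes of HSF factors are given too. *Hsf1* had 0.08 at day 2 and -0.05 at day 5 and did not pass (adjusted p = 0.833 and 0.912), while *Hsf4* fell by 0.30 (0.0214) and 0.44 (0.00117). *Hsf5* had -0.22 at day 2 (0.312) and fell by 0.51 at day 5 (0.0106). *Hsf2* (0.16 and 0.01) and *Hsbp1*, which encodes a protein that binds HSF1 (-0.13 and -0.01), did not pass. None of the 65 genes passed between KO and WT in control, day 2 or day 5 samples.

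The 5 genes most like *Hspb1* over the 24 samples, among 14493 genes well above background in all of them, were *Procr* (r = 0.98), *Serpinb1a* (0.98), *Uck2* (0.97), *Sectm1b* (0.97) and *Slc29a2* (0.97). All were higher at both time points and more so at day 2, *Procr* by 3.15 and 2.27, *Serpinb1a* by 1.96 and 1.61, *Uck2* by 1.05 and 0.90, *Sectm1b* by 2.37 and 2.00 and *Slc29a2* by 1.72 and 1.17. As deviations from the group means their r with *Hspb1* was 0.52 to 0.69, so most of the likeness is the pattern over the groups. Since they were chosen for their likeness, the shared course is no separate result. None of the 5 is a chaperone gene. The 5 genes most like *Hspa1b* were *Fbp2* (r = 0.81), *Gpx3* (0.74), *Slc25a32* (0.74), *Id3* (0.74) and *Eif2a* (0.73), with day 5 differences of -0.50, -0.61, -0.31, -0.37 and -0.26.

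The RNA of cell type markers changed with the lesion too, and cell number and RNA per cell cannot be told apart here. Of 13 neuron markers 9 were lower at day 2 and 9 at day 5, while *Stmn2* was higher at both time points and *Tubb3* at day 5, with the log2 of their sum at 19.34 to 19.60 in control, 19.06 to 19.28 in day 2 and 18.95 to 19.31 in day 5 samples. Of 10 macrophage markers 7 were higher at day 2 and 10 at day 5, with 10.77 to 11.61, 11.35 to 12.26 and 12.64 to 13.21. Of 10 skeletal muscle markers none passed, but their sum stood at 11.42 to 14.20 in KO day 2 replicates 1 and 4, KO day 5 replicate 1 and WT control replicate 1, and below 10.1 in all others. Of 5 fat markers 1 was higher at day 2 and 4 at day 5, with sums of 7.10 to 9.85 in control, 8.11 to 10.79 in day 2 and 8.71 to 11.99 in day 5 samples. Of 7 satellite glia markers 3 were higher and 3 lower at day 2, and 3 higher and 1 lower at day 5.

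Genes that respond to handling, temperature and time of day were read as well. Of 7 immediate early genes 4 (*Fos*, *Ier2*, *Junb* and *Dusp1*) were higher at both time points. The cold-induced RNA-binding protein gene *Rbm3* was higher at day 2 by 0.53 (adjusted p = 2.19e-06), and its relative *Cirbp* fell at day 5 by 0.26 (0.0384). Of 5 clock genes *Per1* was higher at both time points, *Dbp* was higher at day 2 by 1.14 (0.000336) and *Arntl* fell at day 2 by 0.96 (6.21e-06). The log2 of the clock gene sum was 10.61 to 11.64 in control, 11.52 to 12.97 in day 2 and 10.71 to 11.76 in day 5 samples.

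As deviations from the group means over the 24 samples, several members moved with these sums. *Hsph1* correlated at r = 0.69, *Hsp90aa1* at 0.61, *Hspa1a* at 0.55 and *Hspb8* at 0.48 with the neuron sum. Of these *Hsph1* and *Hspa1a* fell at day 5, as most neuron markers did. *Hsp90aa1* went the other way at day 5 (0.20, not passing), and *Hspb8* rose at day 2, when most neuron markers fell. *Hsph1* and *Hspa1a* also correlated with the satellite glia sum (0.65 and 0.54), and *Hsph1* and *Hsp90aa1* correlated inversely with the Schwann cell sum (-0.60 and -0.57). *Hsp90aa1* (-0.75), *Dnajb1* (-0.57) and *Hsph1* (-0.51) ran against the clock gene sum, *Hspa1b* (-0.64) against the temperature-dependent pair, and *Hspb8* correlated with the muscle sum (0.47). *Hspb1* had 0.11 with the neuron, 0.19 with the macrophage and 0.20 with the muscle sum, and its values farthest from 0 were -0.47 with the temperature-dependent pair, -0.43 with red cell markers and 0.40 with immediate early genes. The part of any of these cells or genes in the values of the heat shock protein genes was not tested.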

How the data were processed

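The authors scanned the arrays with Agilent Feature Extraction and deposited, per spot and channel, foreground and background intensities and flags, without normalization, and the processed signal intensities of that software, which served as an alternative. As in the study's methods, the Edwards method was used for background correction, with mean foreground and median background, followed by quantile normalization over all 24 channels. Control spots were left out, outlier spots were set to missing (417 probe values, none of a member), spots of a probe were averaged and values put on the log2 scale. Using limma 3.58.1 (with statmod 1.5.0, in R 4.3.3), lmFit and eBayes estimated a mean for each of the 6 groups from all 24 samples, and two-sided p-values were adjusted by Benjamini-Hochberg over 41174 probes, with a threshold of 0.05. The brightest probe stood for a gene, and genes were counted by name. The scripts were tested on simulated data.

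All 10 members were named, with up to 4 rises and 4 falls of the chaperone list, the 5 genes most like *Hspb1* and *Hspa1b*, and *Nfil3*, *Atf3* and *Sprr1a* as checks. The members, lists and alternatives were chosen with earlier results of these data known. Samples were grouped by title. Another cell type marker is not reported here and entered no marker sum. The mm9 probe positions come with the array annotation. Promoters are from RefSeq (GRCm38.p6). The number of arrays limits the precision. The alternatives were the background correction, median foreground, loess with Aquantile normalization, outliers kept, a filter on dim probes (well above background in 4 or more samples kept), averaged probes, dye, slide, replicate number, array or array partner in the model, an intensity trend, and samples left out. The SAMR, globaltest and oPOSSUM analyses of the study were not run.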

Additional observations from a re-analysis of the deposited data

Results flagged for a closer look

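*Hsp90aa1* in WT day 2 replicate 3 had a log2 intensity of 15.33 (15.3259 before rounding), while the other 3 samples of its group lay between 15.56 and 15.60. The gap of this sample to the nearest other was 0.856 of the range of the group and exceeded the critical value of Dixon's test. It was the only such sample in the 60 groups of 4 samples tested over the 10 genes, and chance gives about 1 in 20 groups.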

How the results depend on the processing

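Of 22 called differences of the 10 genes 8 passed under every alternative run, and none of the 22 reversed. The 8 were *Hspb1* at day 2 and day 5, in the mean of the genotypes and in WT and KO mice, and *Hspa1a* and *Hspa2* at day 5 in the mean. In the mean of the genotypes *Hspb1* stayed between 1.21 and 1.35 at day 2 and between 0.88 and 0.99 at day 5, in WT between 1.23 and 1.39 and between 0.90 and 0.99, and in KO between 1.16 and 1.31 and between 0.82 and 0.99. The number of called members moved by more than 1.5 times in some settings. Without the 4 controls that shared an array with a lesioned sample it was 1 at day 2 in the mean of the genotypes, in WT and in KO, and 1 at day 5 in KO, *Hspb1* in each case. That setting leaves 4 controls. For it and the other alternatives the share of all genes that passed was not counted. These numbers therefore cannot tell a change of the members from a change over all genes. With slide as a block 3 passed in WT at day 5, and with averaged probes 1 passed in KO at day 2. Chosen after the data were seen, the samples of array 5 left out gave 1 in KO at day 2, and those of array 8 left out gave 1 from day 2 to day 5, 1 in KO at day 2 and 3 in KO at day 5. Leaving out 1 sample at a time gave 3 to 5 members at day 2, 6 to 7 at day 5, 1 to 2 from day 2 to day 5, 1 to 2 in WT at day 2, 1 to 2 in WT at day 5, 1 to 3 in KO at day 2 and 2 to 5 in KO at day 5. *Hspb8* lost its change from day 2 to day 5 in 9 of these (adjusted p of 0.05 to 0.0628), *Hspb8* in WT at day 2 in 6 (0.0678 to 0.101), *Hspa2* in KO at day 2 in 6 (0.0513 to 0.1), *Hspa8* in KO at day 5 in 8 (0.0501 to 0.153) and *Hspa1a* and *Hspa1b* in KO at day 5 in 3 each (0.0504 to 0.0594 and 0.0564 to 0.0795). The decline of *Hspb1* from day 2 to day 5 was -0.33 without array 8 (adjusted p = 0.0532). The cause of these changes was not tested.

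Whether replicate numbers pair the samples could not be told. Deviations of samples with the same number correlated between -0.59 and 0.59 with a median of 0.06. The median was -0.04 for samples of the same dye with another number, and 8 of 24 samples correlated best with their own number. Samples on the same array had different numbers and correlated more strongly, which can hide a pairing by number. With the replicate block 5 members passed at day 2, 6 at day 5, 2 from day 2 to day 5, 2 in WT at day 2, 2 in WT at day 5, 2 in KO at day 2, 6 in KO at day 5 and 0 between the genotypes and for the interaction. The share of all genes that passed was not counted with this block. Samples on the same array correlated at a median of 0.43. For the comparison of the genotypes and the interaction no member passed in any alternative.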
